A study of Homo sapiens with 12 samples.

Results

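The 10 heat shock chaperone genes of the cytosol and the mitochondrial matrix were followed in the A375 and SK-MEL-28 cell lines: HSP90AA1, HSP90AB1, HSPA8, HSPA1A, HSPA1B, HSPH1, DNAJA1, DNAJB1, HSPD1 and HSPE1. They were taken by gene symbol, 1 row per symbol, and all 10 were found among 58307 rows that name a gene. Both are established lines derived from human melanoma. Cells of each line received Etoposide, a topoisomerase II poison, or Etoposide + Rapamycin, in which rapamycin inhibits the kinase mTOR and served to induce autophagy. The 12 libraries made 4 groups of 3, and every group received etoposide, so the comparisons show what rapamycin added to etoposide and not the effect of either drug alone. The labels give no dose or time for these cultures. The study calls its replicates biological without saying what was repeated, and p-values measure the spread between these libraries.

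Chaperones bind unfolded or partly folded proteins and release them through cycles of ATP binding and hydrolysis. HSP70 proteins (HSPA8, HSPA1A, HSPA1B) take up exposed hydrophobic stretches, J-domain proteins (DNAJA1, DNAJB1) deliver clients and stimulate the ATPase, and HSPH1 exchanges the nucleotide. HSP90 proteins (HSP90AA1, HSP90AB1) act later on kinases, steroid receptors and other nearly folded clients, whereas HSPD1 and its lid HSPE1 form the folding chamber of the mitochondrial matrix. HSPA1A, HSPA1B, HSP90AA1, DNAJB1 and HSPH1 are known as inducible genes, switched on by the heat shock factor HSF1 when unfolded proteins build up, whereas HSPA8 and HSP90AB1 are known for high levels in unstressed cells. In melanoma, HSP90 is known for holding mutant BRAF, its client, in an active form.

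The 12 libraries held 28189501 to 32499337 counts each, and the 10 chaperones together took 0.342% to 0.432% of them. Levels are given as CPM, the counts of a gene relative to the total of its library, after scaling by TMM, edgeR's correction for library composition. The lineage marker SOX10 lay between 291 and 474 CPM in the group means and S100B between 58.4 and 98.1, while the pigment genes PMEL, MLANA, TYRP1 and DCT lay at or below 2.50 CPM and TYR, the pigment enzyme tyrosinase, at or below 0.0889. The summed level of 12 markers of other cells was 49.1 to 74.2 CPM, most of it from CD68, LUM and KRT14. Mitochondrially encoded genes took 3.31% to 3.53% of the counts in A375 with rapamycin and 4.15% to 4.50% without it, against 4.49% to 4.58% and 4.66% to 5.06% in SK-MEL-28.

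The sequences before the transcription starts are shown because HSF1 reads short alternating units, nGAAn and its reverse nTTCn, in front of its targets. GAANNTTC and TTCNNGAA, both their own reverse complement, were searched from 250 bases before to 50 after each MANE Select start, with overlapping matches merged into 1 element. Of the 10 genes, 8 held such letters, as did 13.5% of 35116 RefSeq promoters of the same length. Elements of at least 3 alternating units lay in the windows of 5 genes, 4 of them before the start, and in 0.49% of all promoters. In the following 250 bases upstream of the start, 5′ to 3′ on the gene's strand, the capitals mark these elements. The first 5 genes are those that fell in A375, and HSPA8 and HSPA1A are shown beside them as members that did not pass the test.
HSPH1: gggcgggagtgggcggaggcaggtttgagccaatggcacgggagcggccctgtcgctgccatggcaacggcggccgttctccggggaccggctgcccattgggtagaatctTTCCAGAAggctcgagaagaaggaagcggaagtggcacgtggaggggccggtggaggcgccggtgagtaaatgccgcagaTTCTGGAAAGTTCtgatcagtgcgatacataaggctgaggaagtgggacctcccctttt
HSP90AA1: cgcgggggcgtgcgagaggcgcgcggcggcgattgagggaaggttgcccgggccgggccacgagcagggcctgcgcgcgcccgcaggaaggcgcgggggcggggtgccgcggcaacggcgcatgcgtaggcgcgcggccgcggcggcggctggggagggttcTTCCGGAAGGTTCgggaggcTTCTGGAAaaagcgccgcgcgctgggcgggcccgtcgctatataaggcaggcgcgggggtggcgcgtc
DNAJB1: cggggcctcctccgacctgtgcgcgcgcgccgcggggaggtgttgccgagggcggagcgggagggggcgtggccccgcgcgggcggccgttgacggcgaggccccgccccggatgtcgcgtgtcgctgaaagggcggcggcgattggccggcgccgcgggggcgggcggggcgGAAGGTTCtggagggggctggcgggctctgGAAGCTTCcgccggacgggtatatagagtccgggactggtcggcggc
HSPD1: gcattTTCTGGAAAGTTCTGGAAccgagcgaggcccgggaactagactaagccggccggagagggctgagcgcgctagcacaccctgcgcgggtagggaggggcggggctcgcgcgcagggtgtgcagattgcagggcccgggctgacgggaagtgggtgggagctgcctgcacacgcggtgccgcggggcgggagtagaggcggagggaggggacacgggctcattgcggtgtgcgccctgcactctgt
HSPE1: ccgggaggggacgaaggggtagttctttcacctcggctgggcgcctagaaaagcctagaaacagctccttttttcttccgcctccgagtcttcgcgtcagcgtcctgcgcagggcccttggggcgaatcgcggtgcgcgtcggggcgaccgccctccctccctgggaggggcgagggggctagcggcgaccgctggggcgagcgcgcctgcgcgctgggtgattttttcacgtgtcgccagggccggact
HSPA8: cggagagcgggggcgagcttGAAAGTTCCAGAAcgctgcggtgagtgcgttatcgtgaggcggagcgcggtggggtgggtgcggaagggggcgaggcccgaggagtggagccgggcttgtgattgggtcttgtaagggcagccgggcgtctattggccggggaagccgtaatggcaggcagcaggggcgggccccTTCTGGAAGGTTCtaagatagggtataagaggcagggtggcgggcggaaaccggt
HSPA1A: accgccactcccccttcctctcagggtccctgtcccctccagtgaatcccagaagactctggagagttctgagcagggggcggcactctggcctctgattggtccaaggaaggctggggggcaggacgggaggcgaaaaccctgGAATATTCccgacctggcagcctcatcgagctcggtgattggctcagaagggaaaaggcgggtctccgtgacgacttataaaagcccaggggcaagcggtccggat
These windows lie at chr13:31161905-31162154 for HSPH1, chr14:102087045-102087294 for HSP90AA1, chr19:14518398-14518647 for DNAJB1, chr2:197499841-197500090 for HSPD1, chr2:197500129-197500378 for HSPE1, chr11:123062137-123062386 for HSPA8 and chr6:31815293-31815542 for HSPA1A. HSPE1 and HSPA1A are on the forward strand and the other 5 on the reverse strand. The letters are those of RefSeq on GRCh38.p14, except for HSPH1, whose window was read from the GRCh38 genome. The start that RefSeq lists for HSPH1 lies 484 bases from the MANE Select start.

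HSPH1 held an element of 3 units from 59 to 47 bases before its start, and HSP90AA1 held one from 88 to 76 bases before. HSPA8 held a pair of 3-unit elements, starting 230 and 55 bases before its start. The longest run was in front of HSPD1, 4 units in 18 bases that began 245 bases before the start. HSPD1 and HSPE1 point away from each other with starts 539 bases apart, and the HSPD1 element (chr2:197500068-197500085) ended 294 bases before the HSPE1 start, outside the HSPE1 window. DNAJA1 held an element of 3 units from 4 to 16 bases after its start. DNAJB1 had a pair of 2-unit elements, and HSPA1A and HSPA1B had 1 each, in upstream windows that shared 94.4% of 249 aligned bases. The letters TATAAA stood on the gene's strand in front of HSPA1A and HSPA1B, as in 7.33% of all promoters. HSP90AB1 and HSPE1 held no match in this window. For HSP90AB1, another start listed 842 bases away held 2 elements. A match describes letters and does not show binding.

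**Figure D1:**
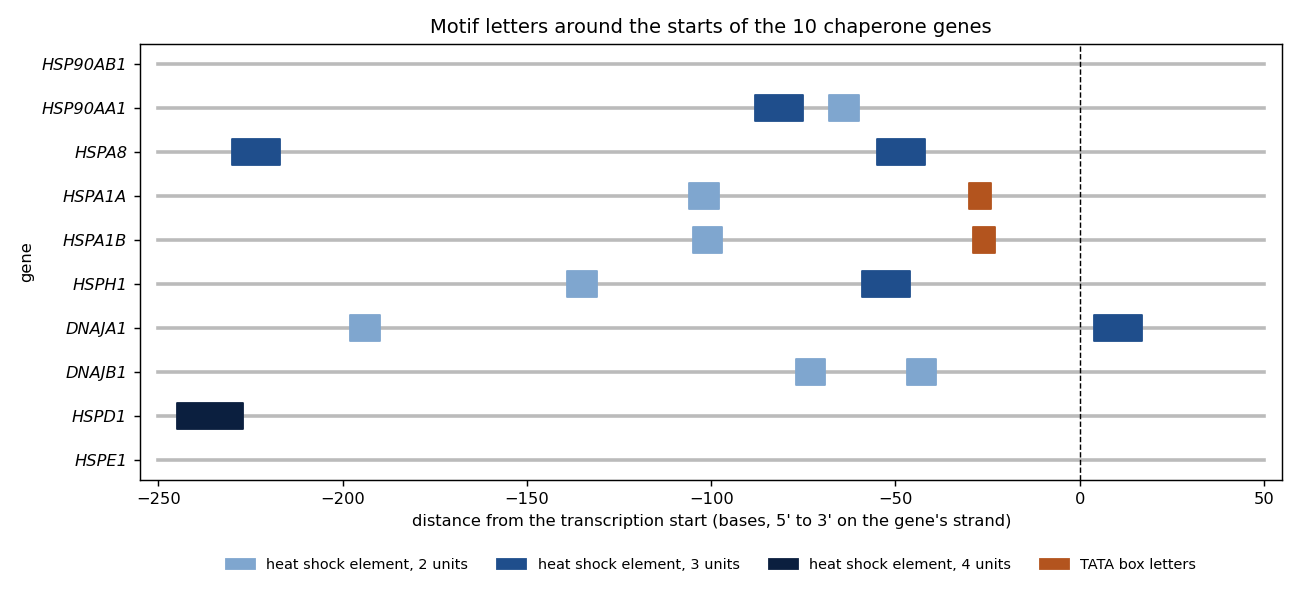
Position of heat shock element letters (blue, darker for more units) and TATAAA (orange) from 250 bases before to 50 after the MANE Select start of each gene, in bases from the start. Of the 10 genes, 8 hold an element of at least 2 units and 5 one of at least 3, whereas HSP90AB1 and HSPE1 hold none.

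The genes lie on 7 chromosomes (GRCh38, GENCODE release 44). HSPA1A (chr6:31815543-31817946) and HSPA1B (chr6:31827738-31830254) stand side by side and have 1 exon each, while HSP90AB1 (chr6:44246166-44253888) is farther along the same chromosome. HSPD1 (chr2:197486584-197516737, reverse strand) and HSPE1 (chr2:197500140-197503449, forward) share a head-to-head arrangement by their MANE Select starts. The annotated span of HSPE1 lies within that of HSPD1. The others are HSPA8 (chr11:123057489-123063230), HSPH1 (chr13:31134973-31162388), HSP90AA1 (chr14:102080742-102139699), DNAJB1 (chr19:14514769-14560391) and DNAJA1 (chr9:33025273-33039907). HSPA1A and HSPA1B cannot be counted apart with certainty, because 72.4% of the 100-base windows of the HSPA1A transcript also occur in HSPA1B. How reads shared by near-identical copies were divided is not stated. The HSPE1 row shares its locus with MOB4 (670 to 990 counts per library) and the read-through HSPE1-MOB4 (0 to 48). Pseudogene rows of the members held at most 0.953% of a member's counts, for HSPE1.

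Per kilobase of the MANE Select transcript, the chaperones kept much the same order in each of the 4 groups. HSP90AB1 was highest, with 495 ± 11 CPM per kb (SD, n = 3) in the A375 etoposide group and 537 ± 21.7 in that of SK-MEL-28. HSPA8 followed with 346 ± 10.2 and 403 ± 8.91, then HSP90AA1 with 204 ± 1.55 and 238 ± 14.7 and HSPD1 with 142 ± 1.37 and 169.9 ± 4.88. None of these neighbours overlapped in any group. HSPE1 and DNAJA1 came next and overlapped in every group but SK-MEL-28 with etoposide, followed by DNAJB1 and HSPH1. These places rest on the MANE Select length, 557 bases for HSPE1 and 5244 for HSPH1. In CPM not divided by length, HSPH1 was above DNAJB1 and HSPE1 below DNAJA1 in every group. At the bottom, HSPA1A had 20.1 ± 1.75 CPM per kb and HSPA1B 19.4 ± 1.83 in A375 with etoposide, and this pair overlapped in all 4 groups. The place of HSPA1A and HSPA1B holds for each gene as counted and rests on how their shared reads were divided.

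**Figure D2:**
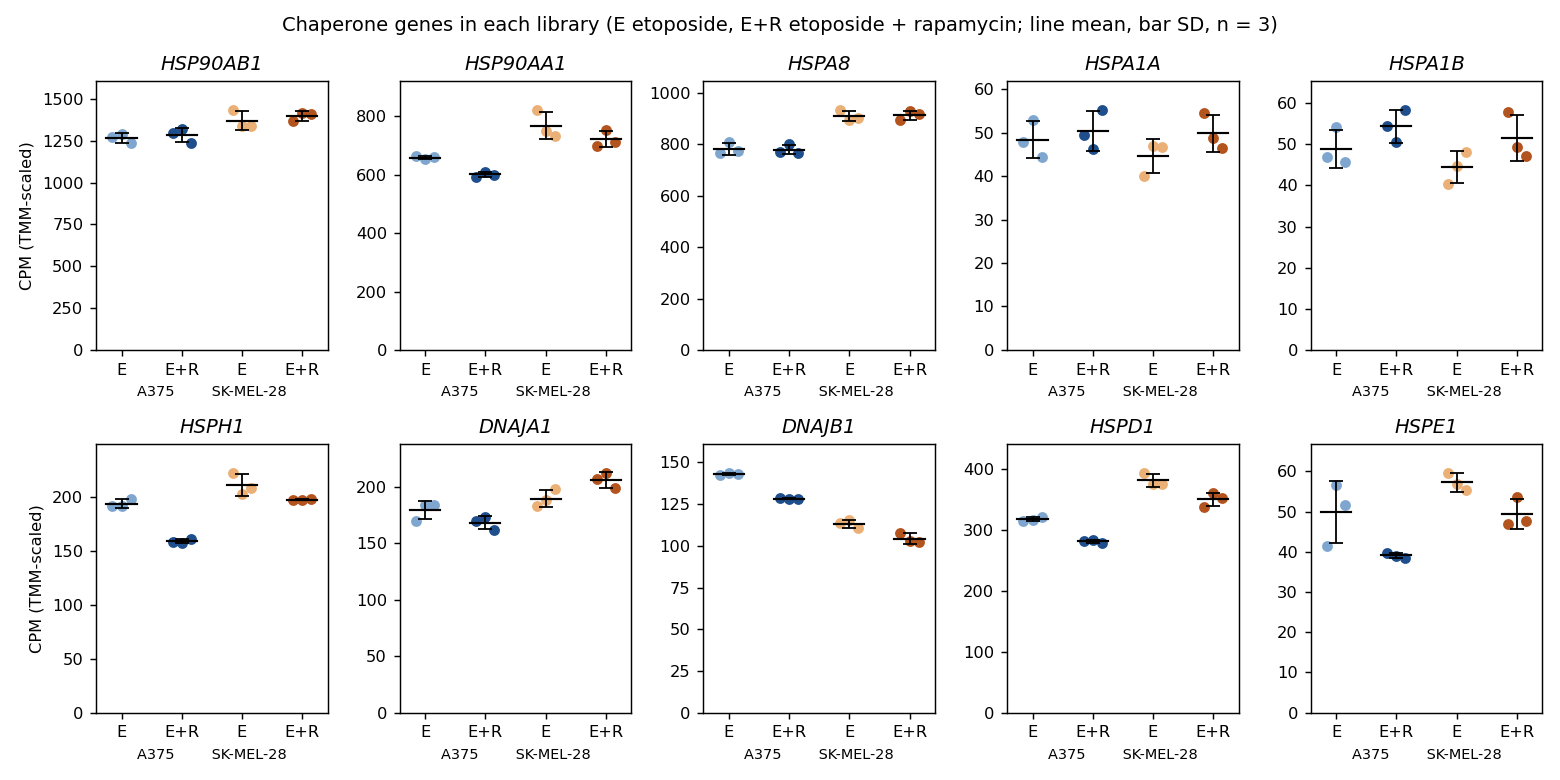
TMM-scaled CPM of each chaperone gene in each of 12 libraries (points), with the group mean (line) and SD (bar, n = 3), each vertical axis starting at 0. In A375 the etoposide libraries of HSPH1, at 192 to 199 CPM, sit above the 158 to 161 CPM of the rapamycin libraries, while those of HSPA8 overlap.

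The first question was whether adding rapamycin to etoposide changed these chaperones. In A375, 5 of the 10 fell and none rose by edgeR's quasi-likelihood test (adjusted p under 0.05): HSPH1, HSPE1, HSPD1, DNAJB1 and HSP90AA1. Across all 18844 genes tested in A375, 28.1% passed this test, 13.8% lower and 14.3% higher. In SK-MEL-28 only HSPE1 passed, again lower, beside 19.0% of 18897 genes, 10.1% lower and 8.83% higher. At an unadjusted p under 0.05, no chaperone was higher in A375, and HSPA1B and DNAJA1 were higher in SK-MEL-28. DESeq2, an alternative test, also gave no higher call in either line. Changes were small. With a fold change over 1.5 required as well, no chaperone was called in either line by edgeR, beside 5.89% of all genes for A375 and 4.99% for SK-MEL-28. The 10 genes had a median log2 fold change of -0.11 in A375 (all genes tested, -0.0051) and of -0.05 in SK-MEL-28 (all genes tested, 0.0053). The rapamycin and etoposide libraries did not overlap for 5 chaperones in each line, beside 42.6% of all genes for A375 and 35.9% for SK-MEL-28. In bulk samples, fewer cells of a type and less RNA per cell cannot be told apart.

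HSP90AA1, the inducible cytosolic HSP90, had 663, 653 and 659 CPM in the 3 etoposide libraries of A375 and 593, 609.5 and 600.3 CPM in the 3 with rapamycin. Every rapamycin library was below every etoposide library, and the gene fell by 8.40% (log2 fold change -0.13, standard error 0.039, adjusted p = 0.0283 by edgeR). In SK-MEL-28 it had 822, 750.1 and 732 CPM with etoposide and 699.7, 753 and 713 CPM with rapamycin. There the groups overlapped, and the log2 fold change of -0.09 (95% interval -0.20 to 0.02) did not pass (adjusted p = 0.245 by edgeR) and was -0.04 without Etoposide replicate 1. HSP90AB1, its constitutive relative and the most abundant of the 10, had 1275, 1288 and 1234 CPM with etoposide in A375 and 1298, 1319 and 1238 CPM with rapamycin. Its SK-MEL-28 libraries had 1435, 1339 and 1339 CPM against 1367, 1417 and 1409.6. Its groups overlapped in both lines, and its log2 fold changes were 0.03 (-0.06 to 0.12) in A375 and 0.03 (-0.06 to 0.11) in SK-MEL-28. Scaled by library totals, both values changed sign, to -0.02 and -0.01. The A375 call for HSP90AA1 was lost without A375 Etoposide + Rapamycin replicate 1, 2 or 3 or Etoposide replicate 2 or 3 (adjusted p = 0.0521 to 0.121 by edgeR), at log2 fold changes of -0.14 to -0.11.

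HSPA8, the constitutive HSP70 that also carries proteins to the lysosome in chaperone-mediated autophagy, had 765, 809 and 774 CPM with etoposide in A375 and 772, 801 and 767 CPM with rapamycin. SK-MEL-28 libraries had 934, 897 and 903 CPM with etoposide against 893, 929 and 917 with rapamycin. The groups overlapped throughout, and the log2 fold changes were -0.00023 (95% interval -0.091 to 0.091) in A375 and -0.00046 (-0.087 to 0.086) in SK-MEL-28.

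HSPA1A and HSPA1B encode the stress-inducible HSP70. HSPA1A had 47.9, 52.8 and 44.4 CPM with etoposide in A375 and 49.5, 46.1 and 55.2 CPM with rapamycin. HSPA1B had 46.8, 54.1 and 45.6 CPM against 54.4, 50.4 and 58.4. The libraries of the groups interleaved for both genes. In SK-MEL-28, HSPA1A had 40.1, 46.8 and 46.7 CPM with etoposide and 54.5, 48.6 and 46.3 CPM with rapamycin, and HSPA1B had 40.4, 44.6 and 48.1 CPM against 57.8, 49.4 and 47.2. Rapamycin replicate 1 was the highest SK-MEL-28 library for both genes and etoposide replicate 1 the lowest. HSPA1A had log2 fold changes of 0.06 (A375) and 0.16 (SK-MEL-28), HSPA1B of 0.16 and 0.21, and none passed (adjusted p = 0.102 to 0.614 by edgeR). With the counts of both genes added, since their reads are shared, A375 gave a log2 fold change of 0.11 (SE 0.072, adjusted p = 0.282 by edgeR) and SK-MEL-28 one of 0.18 (SE 0.076, adjusted p = 0.113). The pair varied most between replicates in SK-MEL-28, with coefficients of variation of 8.47% to 10.9%. In A375, HSPA1B passed as higher once Etoposide replicate 2 was left out (log2 fold change 0.24, adjusted p = 0.0318 by edgeR), and HSPA1A turned to -0.01 without Etoposide + Rapamycin replicate 3.

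HSPH1, the HSP110 protein that exchanges nucleotide on HSP70, had 192, 192 and 199 CPM with etoposide in A375 and 159, 158 and 161 CPM with rapamycin. The groups lay well apart, and the gene fell by 17.6% (log2 fold change -0.28, standard error 0.042, adjusted p = 0.000412 by edgeR). It had the smallest p of the 10 in A375 and stood at rank 1002 among the 18844 genes tested there. In SK-MEL-28 it had 223, 203 and 209 CPM with etoposide and 198, 197 and 198 CPM with rapamycin. The rapamycin libraries were again all below the etoposide libraries, but the log2 fold change of -0.10 (95% interval -0.21 to 0.01) did not pass (adjusted p = 0.202 by edgeR) and was -0.06 without Etoposide replicate 1.

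DNAJB1, the J-domain partner of HSP70 in dissolving aggregates, had 142.5, 144 and 142.9 CPM with etoposide in A375 and 129, 128 and 128 CPM with rapamycin. The libraries of each group lay close together, well apart from the other group, and the gene fell by 9.98% (log2 fold change -0.15, standard error 0.042, adjusted p = 0.0163 by edgeR). The call was lost when any 1 of the 3 A375 rapamycin libraries was left out (adjusted p = 0.0557 to 0.0620 by edgeR), at log2 fold changes of -0.15 each time. In SK-MEL-28 DNAJB1 had 114, 115 and 110.5 CPM against 108, 103 and 102, without overlap and with a log2 fold change of -0.12 that did not pass (adjusted p = 0.121 by edgeR). DNAJA1, a J-domain protein of the other cytosolic class, had 169.9, 184 and 184 CPM with etoposide in A375 and 170.1, 173 and 162 CPM with rapamycin. These groups overlapped, at a log2 fold change of -0.09 (adjusted p = 0.222 by edgeR). In SK-MEL-28 it had 183, 188 and 198 CPM with etoposide and 207, 213 and 199 CPM with rapamycin, so that all rapamycin libraries were above the etoposide libraries. That log2 fold change of 0.12 (95% interval 0.0052 to 0.23) did not pass either (adjusted p = 0.139 by edgeR).

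HSPD1, the mitochondrial chaperonin HSP60, had 315, 317 and 321 CPM with etoposide in A375 and 282, 284 and 279 CPM with rapamycin. It fell by 11.1%, without overlap (log2 fold change -0.17, standard error 0.040, adjusted p = 0.00747 by edgeR). In SK-MEL-28 it had 394, 375.4 and 374.7 CPM against 337, 359.9 and 352, again without overlap, at a log2 fold change of -0.13 that missed the threshold (adjusted p = 0.0795 by edgeR). HSPE1, the co-chaperonin HSP10, had 41.5, 56.5 and 51.8 CPM with etoposide in A375 and 39.7, 39.1 and 38.6 CPM with rapamycin. The etoposide libraries were far more spread than the rapamycin libraries, and the lowest of them stood just above the rapamycin group. HSPE1 fell by 21.3% (log2 fold change -0.35, standard error 0.092, adjusted p = 0.0138 by edgeR), which became -0.25 without Etoposide replicate 2 (adjusted p = 0.0677) and -0.34 both without Etoposide + Rapamycin replicate 3 (adjusted p = 0.0519) and with a filter of 1 count (adjusted p = 0.0655). In SK-MEL-28 it had 59.7, 56.7 and 55.3 CPM with etoposide and 46.9, 53.6 and 47.6 CPM with rapamycin. It was the 1 chaperone to pass there, falling by 14.0% (log2 fold change -0.22, standard error 0.063, adjusted p = 0.0296 by edgeR). That call was lost without Etoposide + Rapamycin replicate 1 or 3 or any 1 of the 3 Etoposide libraries (adjusted p = 0.0552 to 0.131 by edgeR). It was also lost with a filter of 1 count (adjusted p = 0.0889) and in 1 fit of all 12 libraries (adjusted p = 0.0953), where HSPD1 passed in its place (adjusted p = 0.0344). The share of mitochondrially encoded counts, given above, was also lower with rapamycin in both lines, and its part in the HSPD1 and HSPE1 results was not tested.

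**Figure D3:**
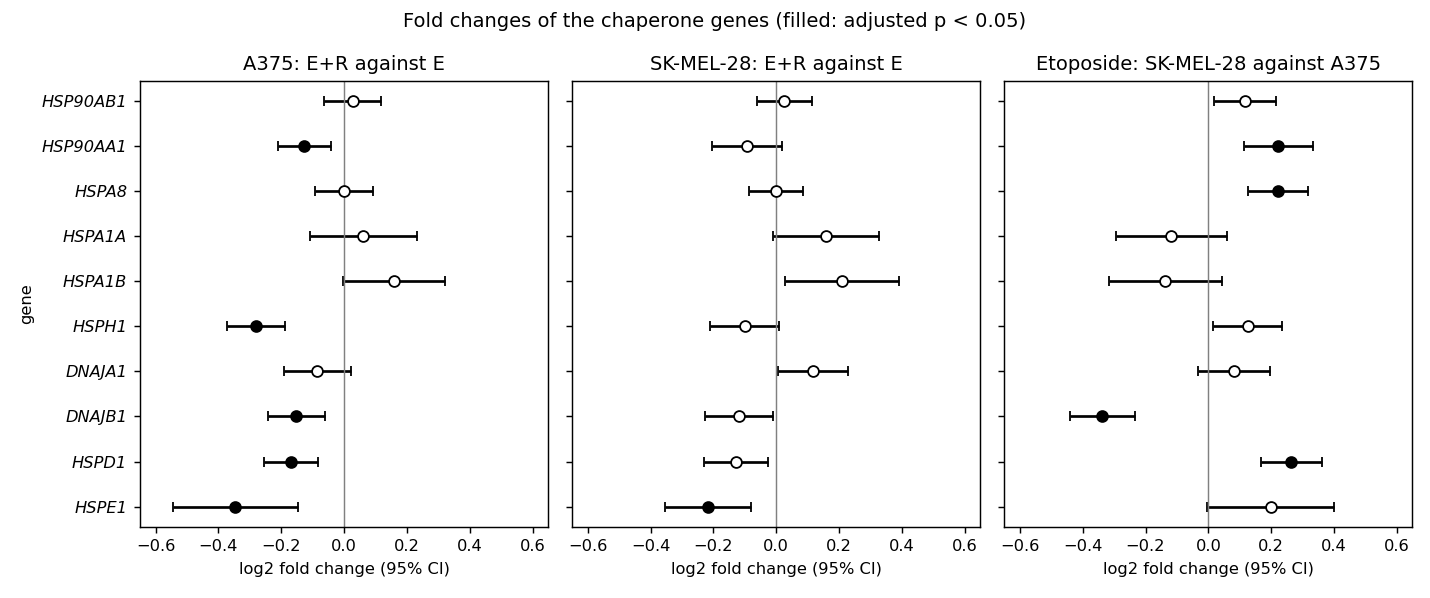
Log2 fold change of each chaperone with its 95% interval, for rapamycin added to etoposide in A375 and in SK-MEL-28 and for SK-MEL-28 against A375 under etoposide. Filled points passed an adjusted p of 0.05: 5 of 10 in A375, all to the left of 0, HSPE1 in SK-MEL-28, and 4 of 10 between the lines.

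Whether rapamycin acted differently on the chaperones of the cell lines was tested with an interaction term over the 12 libraries. By edgeR, 0 of the 10 chaperones passed, beside 5.62% of 20101 genes, while 2 had an unadjusted p under 0.05 and DESeq2 called the same pair. These were HSPH1, with a log2 difference (SK-MEL-28 minus A375) of 0.19 (95% interval 0.06 to 0.31, adjusted p = 0.0806 by edgeR), and DNAJA1, with 0.21 (0.07 to 0.36, adjusted p = 0.0830). Without SK-MEL-28 Etoposide replicate 1 the HSPH1 difference became 0.23 and passed (adjusted p = 0.0260 by edgeR). For the other 8 genes the differences lay between 0.0060 and 0.14, with adjusted p-values of 0.585 to 0.968 by edgeR. By edgeR, the 4 chaperones that passed in A375 but missed the threshold in SK-MEL-28 were therefore not shown to differ in response.

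Some of these genes differed between the lines under etoposide. SK-MEL-28 had more HSPD1 (log2 fold change 0.26, standard error 0.045, adjusted p = 0.000587 by edgeR), more HSP90AA1 (0.22, 0.050, adjusted p = 0.00420) and more HSPA8 (0.22, 0.044, adjusted p = 0.00193) than A375. DNAJB1 was lower in SK-MEL-28, by -0.34 on the log2 scale (SE 0.048, adjusted p = 0.000137 by edgeR), with 110.5 to 115 CPM there and 142.5 to 144 CPM in A375. Thus 4 of 10 passed, 3 higher and 1 lower, beside 31.7% of 19025 genes, 15.2% higher and 16.5% lower. A count of 4 among 10 does not set the chaperones apart from that share. The libraries did not overlap for 6 chaperones, beside 44.6% of all genes. HSP90AB1 (0.12, adjusted p = 0.0696) and HSPH1 (0.13, adjusted p = 0.0793) were the nearest to the threshold by edgeR among those that did not pass. In 1 edgeR fit of all 12 libraries both passed (adjusted p = 0.0318 and 0.0336), and DESeq2 called HSP90AB1 (adjusted p = 0.0393). HSPA1A and HSPA1B had log2 fold changes of -0.12 and -0.14 and overlapped. HSPE1 passed as higher only once A375 Etoposide replicate 2 was left out (0.30, adjusted p = 0.0327 by edgeR). Cell line, culture and library preparation cannot be told apart in this comparison.

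Ratios of 2 chaperones within a library do not depend on how libraries are scaled. The ratio of HSP90AA1 to HSP90AB1 counts was 0.520, 0.507 and 0.534 with etoposide in A375 and 0.457, 0.462 and 0.485 with rapamycin. In SK-MEL-28 it was 0.573, 0.560 and 0.547 against 0.512, 0.531 and 0.506. All rapamycin libraries were below all etoposide libraries of the same line, and the mean log2 difference within lines was -0.14 (exact permutation test, two-sided, p = 0.005, the smallest it can give, adjusted p = 0.02 over 4 ratios). Rapamycin went with proportionally less of the inducible HSP90 transcript relative to the constitutive one in both lines.

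The ratio of DNAJB1 to DNAJA1 was 0.839, 0.783 and 0.776 with etoposide in A375 and 0.758, 0.742 and 0.790 with rapamycin, with overlap. In SK-MEL-28 it was 0.622, 0.613 and 0.559 against 0.521, 0.484 and 0.515, without overlap. The mean log2 difference was -0.15 (exact permutation test, p = 0.015, adjusted p = 0.03), and the adjusted p rose to 0.05 or 0.06 without any 1 of the 3 SK-MEL-28 Etoposide + Rapamycin libraries or A375 Etoposide + Rapamycin replicate 1 or 2. In SK-MEL-28 the numerator had a log2 fold change of -0.12 and the denominator of 0.12, neither of which passed alone.

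The inducible HSP70 genes together, relative to HSPA8, had count ratios of 0.116 to 0.132 with etoposide and 0.121 to 0.148 with rapamycin in A375. These were 0.0861 to 0.105 and 0.102 to 0.126 in SK-MEL-28. The groups overlapped in both lines and the mean log2 difference of 0.15 did not pass (exact permutation test, p = 0.1, adjusted p = 0.1). The chaperonin HSPD1 relative to HSPE1 had ratios of 5.60 to 7.59 with etoposide and 7.10 to 7.27 with rapamycin in A375, and 6.60 to 6.78 and 6.71 to 7.39 in SK-MEL-28. This mean log2 difference of 0.13 did not pass (exact permutation test, p = 0.075, adjusted p = 0.1), but without A375 Etoposide replicate 1 it was 0.19 (adjusted p = 0.02). Within 1 cell line, where 3 libraries face 3, the smallest exact p is 0.1.

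**Figure D4:**
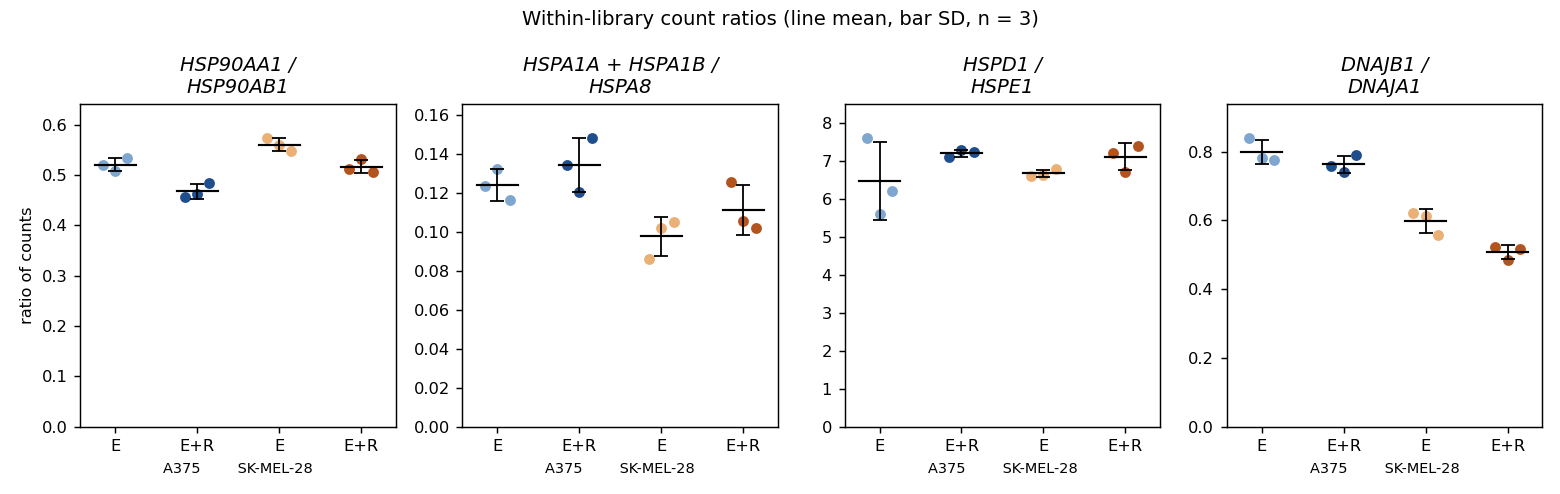
Ratio of the counts of 2 chaperones in each of 12 libraries (points), with the group mean (line) and SD (bar, n = 3), axes starting at 0. The HSP90AA1 to HSP90AB1 ratio is 0.457 to 0.485 in the A375 rapamycin libraries, below the 0.507 to 0.534 of the etoposide libraries, and the same order holds in SK-MEL-28.

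Over the 12 libraries, after centring log2 CPM within each line, the chaperones fell into sets that moved together. These correlations are descriptions, since all points share the libraries and the treatment. HSP90AA1 and HSPD1 had a Pearson correlation of 0.92, HSPH1 and HSPD1 of 0.92, HSPH1 and DNAJB1 of 0.86, and HSPD1 and HSPE1 of 0.85. HSPA1A and HSPA1B, whose reads are shared, had 0.93. HSPA8 and HSP90AB1, the abundant constitutive genes, had 0.72. HSPA1B ran against HSP90AA1 and HSPD1, at -0.78 with each. The mean standardised profile of the 10 was highest in A375 Etoposide replicate 2, at 1.04, and lowest in A375 Etoposide + Rapamycin replicate 3, at -0.61. Among 12703 other genes with at least 100 counts on average, the most alike to this profile were COX6C (0.955, a subunit of cytochrome c oxidase), MT-TG (0.954, the mitochondrial glycine tRNA), EIF3J (0.948, a translation initiation factor), MRPS36 (0.932) and MED4 (0.925, a subunit of Mediator). Their log2 fold changes with rapamycin in A375 were -0.25 for COX6C, -0.24 for MT-TG, -0.28 for EIF3J, -0.39 for MRPS36 and -0.47 for MED4. In SK-MEL-28 they were smaller, at -0.06, -0.02, -0.08, 0.07 and -0.09 in the same order. Since the profile itself separates the A375 groups, the direction in A375 came with the choice of genes. These values are given with no test.

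Among the transcription factors of the heat shock response, HSF1 rose in both lines and HSF4 in A375. HSF1, the main stress-activated factor, had 91.6, 98.2 and 96.4 CPM with etoposide in A375 and 124.7, 120.5 and 129 CPM with rapamycin. It rose there by 0.39 on the log2 scale (SE 0.048, adjusted p = 9.16e-05 by edgeR). In SK-MEL-28 it had 88.97, 102.8 and 94.96 CPM against 110.5, 114 and 109.9, and rose by 0.22 (standard error 0.058, adjusted p = 0.0193 by edgeR). The SK-MEL-28 call was lost without Etoposide + Rapamycin replicate 2 or 3 or Etoposide replicate 3 (adjusted p = 0.0530 to 0.0608). HSF4 rose in A375 (0.47, standard error 0.10, adjusted p = 0.00443 by edgeR) and had a log2 fold change of 0.10 in SK-MEL-28 (adjusted p = 0.593). HSF2 had -0.08 and -0.03, and neither passed (adjusted p = 0.680 and 0.866). Transcript levels do not show the activity of these factors, which is set largely after translation.

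The cofactors of HSP70 went both ways in A375. Of 24 cytosolic HSP70 cofactors, 5 rose and 7 fell there (50% of the list, 28.1% of all genes), and 2 fell in SK-MEL-28 (8.33%, against 19.0% of all genes). The nuclear J-domain protein DNAJC9 rose most in A375 (0.35, adjusted p = 0.00518 by edgeR). Among the genes that passed there, BAG2, which inhibits the ubiquitin ligase CHIP, fell most (-0.37, adjusted p = 0.0150). DNAJB5 fell most in SK-MEL-28 (-0.75, adjusted p = 0.00391 by edgeR). In A375 DNAJB5 (-0.42, adjusted p = 0.0623) and DNAJB4 (-0.42, adjusted p = 0.101) had lower values than BAG2 but did not pass. Of 25 HSP90 co-chaperones, 7 rose and 2 fell in A375 (36% of the list, 28.1% of all genes), and 1 rose and 1 fell in SK-MEL-28 (8%, against 19.0%). TELO2, which with HSP90 assembles mTOR and related kinases, rose in both, by a log2 fold change of 0.71 in A375 (adjusted p = 3.30e-06 by edgeR) and 0.37 in SK-MEL-28 (adjusted p = 0.00238). RPAP3, a subunit of the R2TP complex that works with HSP90, fell in A375 (-0.48, adjusted p = 0.000377 by edgeR), and the cyclophilin PPID fell in SK-MEL-28 (-0.25, adjusted p = 0.0283). Leaving out any 1 of the 6 SK-MEL-28 libraries ended the PPID call (adjusted p = 0.0557 to 0.0936 by edgeR), and BAG2 was lost without A375 Etoposide + Rapamycin replicate 1 or 2 or Etoposide replicate 3 (adjusted p = 0.0507 to 0.0737).

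Among 14 other HSP70 and small heat shock proteins tested of 18, A375 had 1 that rose and 2 that fell, and SK-MEL-28 had 3 that fell, 21.4% in each line beside 28.1% and 19.0% of all genes. The small heat shock protein HSPB1 rose in A375 (0.26, adjusted p = 0.00330 by edgeR). HSPA4L, a relative of HSPH1, fell in both lines, by a log2 fold change of -0.47 in A375 (adjusted p = 0.00641 by edgeR) and -0.48 in SK-MEL-28 (adjusted p = 0.00414). Of 21 genes of mitochondrial protein folding and quality control, the companions of HSPD1 and HSPE1, 3 rose and 5 fell in A375 (38.1% of the list, 28.1% of all genes). In SK-MEL-28, 1 rose and 3 fell, which is 19.0% of the list, as of all genes. CLPX, the unfoldase of the matrix protease ClpXP, fell most in both lines (-0.33, adjusted p = 0.000313 by edgeR, and -0.21, adjusted p = 0.0152). DNLZ, a partner of the mitochondrial HSP70, rose most in A375 (0.60, adjusted p = 0.000536 by edgeR) and the processing peptidase subunit PMPCB rose most in SK-MEL-28 (0.16, adjusted p = 0.0316). In SK-MEL-28 the CLPX call was lost without Etoposide + Rapamycin replicate 1 or 3 or Etoposide replicate 3 (adjusted p = 0.0599 to 0.0653 by edgeR). The PMPCB call was lost there without Etoposide + Rapamycin replicate 2 or 3 or Etoposide replicate 2 or 3 (adjusted p = 0.0660 to 0.115 by edgeR), with library totals (adjusted p = 0.0799) and with a filter of 1 count (adjusted p = 0.0530).

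The cytosolic chaperonin TRiC folds actin and tubulin, which its partner prefoldin delivers. The 2 calls among 16 subunits in each line were 12.5% of the list, beside 28.1% and 19.0% of all genes. In A375 both fell, of which CCT8 fell most (-0.21, adjusted p = 0.00842 by edgeR), and in SK-MEL-28 both rose, PFDN2 most (0.24, adjusted p = 0.0439). The PFDN2 call was lost without SK-MEL-28 Etoposide + Rapamycin replicate 2 or 3 or Etoposide replicate 1 or 3 (adjusted p = 0.0712 to 0.181 by edgeR), and its value was 0.16 without Etoposide + Rapamycin replicate 2. It was also lost with library totals (adjusted p = 0.0743) and a filter of 1 count (adjusted p = 0.119). Of 23 heat shock factors and genes listed with them, A375 had 5 that rose (HSF1, HSF4, HSPB1, RGS2 and IER5). There were 3 that fell there (HSBP1, HSPA4L and HMOX1). SK-MEL-28 had 2 of each, with HSPA4L falling most. The calls were 34.8% and 17.4% of the list, beside 28.1% and 19.0% of all genes. HSPB1, HSPA4L and some genes without a call, such as BAG3 and TCP1, are also counted in the other lists. RGS2, a regulator of G protein signalling, rose most in A375 (0.50, adjusted p = 0.00462 by edgeR) and HMOX1, heme oxygenase, fell most (-0.52, adjusted p = 0.000243). IER5, which binds HSF1, rose most in SK-MEL-28 (0.26, adjusted p = 0.0107 by edgeR). That call was lost without Etoposide + Rapamycin replicate 3 (adjusted p = 0.0681) or Etoposide replicate 3 (adjusted p = 0.0510). In A375 IER5 also rose (0.38, adjusted p = 0.000439 by edgeR).

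Chaperones of the endoplasmic reticulum, which answer to another stress pathway, are set beside the cytosolic and mitochondrial genes. Of 20 of them, 15 fell in A375 (75%, against 13.8% of all genes), while SK-MEL-28 had 16 that fell (80%, against 10.1%). The median log2 fold changes were -0.28 and -0.42. HSP90B1, the HSP90 of this compartment, had 773, 813 and 825 CPM with etoposide in A375 and 544, 547 and 529.5 CPM with rapamycin, a log2 fold change of -0.57 (adjusted p = 1.78e-06 by edgeR). HSPA5, its HSP70, had 1121, 1090.5 and 1107 CPM in SK-MEL-28 with etoposide and 749.6, 701 and 717 CPM with rapamycin, a log2 fold change of -0.62 (adjusted p = 7.70e-07 by edgeR). Of the cytosolic relatives, HSP90AA1 had log2 fold changes of -0.13 (A375) and -0.09 (SK-MEL-28), and HSP90AB1 and HSPA8 lay between -0.00046 and 0.03. The lists were not compared by a test.

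**Figure D5:**
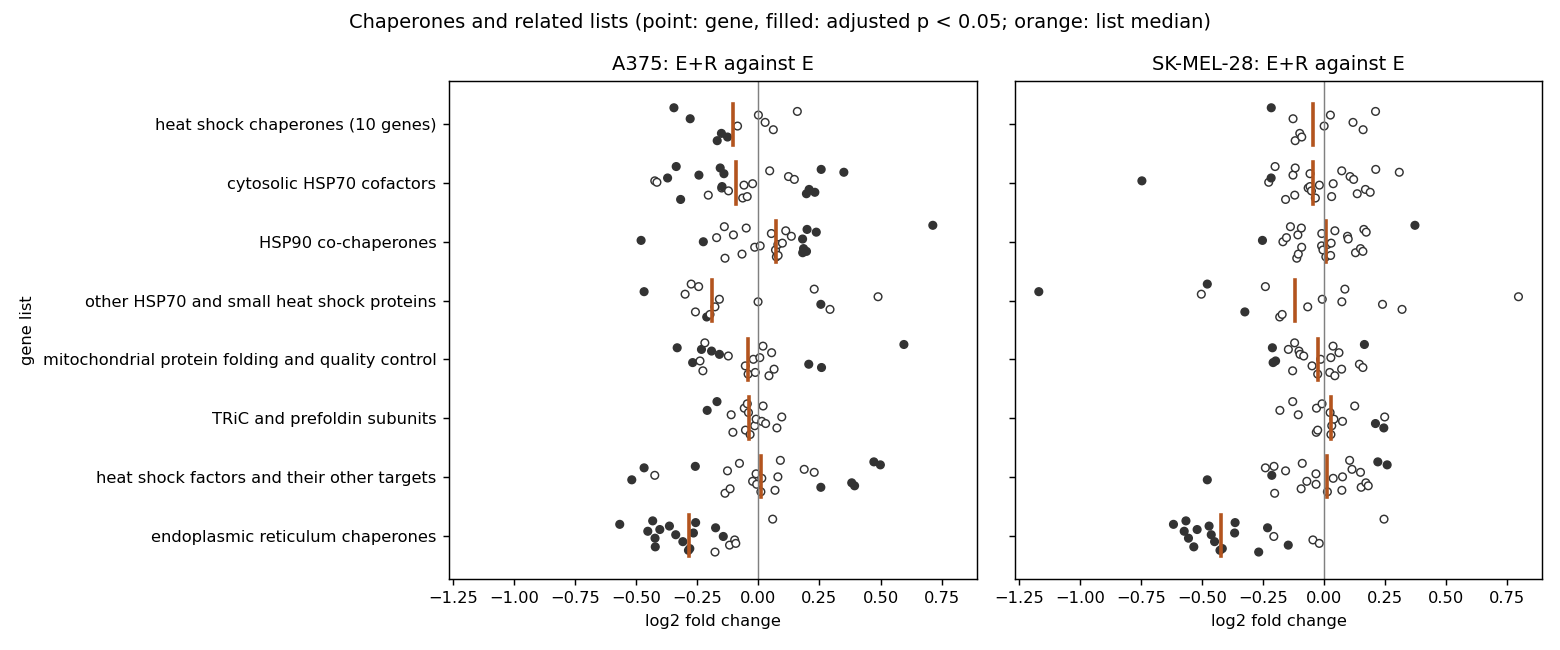
Log2 fold change with rapamycin of each gene tested in A375 and SK-MEL-28, for the 10 chaperones and 7 related lists (points, filled at an adjusted p under 0.05, orange line at the list median, points spread vertically only to be seen). The medians of the 10 chaperones are -0.11 and -0.05, and those of the endoplasmic reticulum chaperones are -0.28 and -0.42.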

How the data were processed

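RNA enriched by polyA selection from A375 and SK-MEL-28 cells was sequenced, with 3 libraries in each of 4 groups. The authors mapped clean reads to the human genome (hg38) with HISAT2 and estimated expression per gene with StringTie and an Ensembl annotation. The deposited table holds raw counts as whole numbers, 1 column per library, not normalized and not pooled. How coverage became counts is not stated. The 5 rows without a gene name, 0.00099% to 0.0053% of a library's counts, were left out. No 2 libraries were identical.

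Genes were tested with edgeR 4.0.16 in R 4.3.3 (filterByExpr with a minimum count of 10, TMM, glmQLFit, glmQLFTest), with p-values adjusted by Benjamini-Hochberg across every gene in the fit and calls at an adjusted p under 0.05. Each line was fitted alone, the difference between lines with all 12 libraries. DESeq2 without a fold limit and edgeR with a fold change over 1.5 were separate alternatives (the authors' rule, which joins DESeq2 with that fold, was not run), as were other size factors, filters, a replicate block, pseudogene rows added, HSPA1A and HSPA1B summed, and each library left out. DESeq2 was version 1.42.0. A standard error is the log2 fold change over the square root of F. Ratios of counts were compared by exact permutation of treatment labels within lines, two-sided. The tests were checked on simulated data. Positions came from GENCODE release 44 and promoters from RefSeq, of which 9 of 10 members had a window at the MANE Select start. All 9 equalled the genome's letters.

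The members and lists were chosen with earlier results of these data known. Named were the members, HSF1, HSF2, HSF4, the largest called rise and fall of each list in each line (mean of at least 100 counts) and the 5 genes most alike to the members' mean profile. Protein sequences were not used here. Depth of 28189501 to 32499337 counts per library sets the precision of low genes, and errors come from replicate spread.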

Additional observations from a re-analysis of the deposited data

Results flagged for a closer look

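By edgeR with Benjamini-Hochberg adjustment over all genes, none of the 10 chaperones passed the interaction test between the lines, beside 5.62% of all genes. A count of 0 among 10 does not set the chaperones apart from that share. In the related lists, 8% of 25 HSP90 co-chaperones and 9.52% of 21 mitochondrial folding genes passed. So did 8.70% of 23 heat shock factors and genes listed with them and 20% of 20 endoplasmic reticulum chaperones. The remaining lists had 0 calls. Together these were 10 genes. The 4 described first were named for the largest change of their list within a line, a choice that favours a difference between lines. Differences are SK-MEL-28 minus A375 on the log2 scale. TELO2, the HSP90 co-chaperone, rose less in SK-MEL-28, with a difference of -0.33 (adjusted p = 0.0294). It went from 33.0 ± 0.927 to 53.9 ± 1.75 CPM (SD, n = 3) in A375 and from 32.3 ± 1.74 to 41.9 ± 2.16 CPM in SK-MEL-28. PMPCB, of the mitochondrial processing peptidase, had a difference of 0.23 (adjusted p = 0.0368), with means of 106.6 and 102.4 CPM in A375 and of 108.6 and 122 CPM in SK-MEL-28 without and with rapamycin. RGS2 had a difference of -0.69 (adjusted p = 0.0148), rising from 8.75 to 12.3 CPM in A375 beside 6.11 and 5.31 CPM in SK-MEL-28. HMOX1, heme oxygenase, had a difference of 0.49 (adjusted p = 0.00487), falling from 33.5 to 23.3 CPM in A375 beside 29.4 and 28.8 CPM in SK-MEL-28. The other 6 were RUVBL2 (-0.27, adjusted p = 0.0260), TRAP1 (-0.34, adjusted p = 0.0109), PDIA4 (-0.28, adjusted p = 0.00949), P4HB (-0.30, adjusted p = 0.00230), HYOU1 (-0.30, adjusted p = 0.00484) and DNAJB9 (0.43, adjusted p = 0.0358), chosen after their values were seen.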

How the results depend on the processing

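Over 90 results, 1052 of 1194 alternative values kept the direction and side of the threshold. HSPH1 and HSPD1 in A375 and the 4 calls between the lines under etoposide kept theirs under every alternative run for single genes. With a fold change over 1.5 required as well, the counts of chaperones called fell to 0 in A375, SK-MEL-28 and between the lines, and those of the related lists to 0 or 1. With DESeq2, 2 chaperones were called in SK-MEL-28, 2 for the difference between lines, and 5 of the HSP70 cofactors in SK-MEL-28. Between the lines under etoposide, DESeq2 called 5 chaperones and 1 edgeR fit of all 12 libraries called 6. Library totals shift the median of all genes to -0.05 in A375 and -0.03 in SK-MEL-28. With them, 3 chaperones were called in SK-MEL-28 (HSPE1, HSPD1 and DNAJB1). With a filter of 1 count, edgeR called 0 there. Leaving out 1 library gave 2 to 5 calls in A375 (lowest without Etoposide + Rapamycin replicate 3), 0 to 1 in SK-MEL-28, 0 to 1 for the difference and 4 to 5 between lines. Over all genes tested, same-numbered libraries did not deviate together (correlations -0.030 to 0.021, against -0.0346 to 0.0363 for different numbers). Correlations over all genes cannot exclude a pairing that shows in fewer genes. With a replicate block the A375 count was 3 and the SK-MEL-28 count 1. The A375 calls lost were HSP90AA1 (-0.13 at adjusted p = 0.0868) and DNAJB1 (-0.15 at adjusted p = 0.0586), by edgeR. The ratios of HSP90AA1 to HSP90AB1 (-0.14) and DNAJB1 to DNAJA1 (-0.15) had an adjusted p of 0.125 by exact sign exchange. In that test the smallest unadjusted p is 0.03125. The HSP90AA1 to HSP90AB1 ratio was lower with rapamycin in every same-numbered pair, so its loss says nothing about stability. For DNAJB1 to DNAJA1, A375 replicate 3 went the other way (0.776 with etoposide, 0.790 with rapamycin). Without 1 library the log2 ratio differences were -0.18 to -0.13 for DNAJB1 to DNAJA1, -0.15 to -0.13 for HSP90AA1 to HSP90AB1, 0.10 to 0.19 for the inducible HSP70 genes to HSPA8, and 0.0796 to 0.189 for HSPD1 to HSPE1. With 3 units in place of 2, 0.49% of promoters held a heat shock element. The cause of these changes was not tested.

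Values near 0 changed sign without passing the test. For HSPA8 in A375 these were 0.00220 (DESeq2), 0.00219 (RLE), 0.00245 (filter of 1 count), 0.000141 (pseudogene rows added) and -0.0178 to 0.0250 without 1 library. In SK-MEL-28 they were 0.00296 (filter of 1 count), 0.00263 (all 12 libraries in 1 fit) and -0.0129 to 0.0194 without 1 library. For the difference, HSPA8 and HSP90AB1 had -0.00553 and -0.00739 (DESeq2), -0.00551 and -0.00740 (RLE), -0.000402 and -0.00234 (filter of 1 count), -0.0108 and -0.0127 (filter of 10 counts), and -0.0223 to 0.0284 and -0.0190 to 0.0408 without 1 library. HSP90AB1 had -0.0177 in A375 and -0.0089 in SK-MEL-28 with library totals. Without 1 library, HSPA1A in A375 ranged from -0.0114 to 0.129, the HSPA1B difference from -0.0321 to 0.123, and HSF2 from -0.182 to 0.00892 in A375 and from -0.0904 to 0.0301 in SK-MEL-28.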
